A study of Homo sapiens with 56 samples.

Results

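Genes that answered an inhibitor of miR-155 in opposite directions were sought in 2 cutaneous T-cell lymphoma lines, HuT102 and MY-LA, after 8 days. The 16 arrays compared, of 56 in the study, were 4 of HuT102 cells grown with MRG-106, 4 of untreated HuT102 cells, 4 of MY-LA cells grown with MRG-106 and 4 of untreated MY-LA cells, all harvested at day 8. The measure was the MRG-106 effect in HuT102 minus the MRG-106 effect in MY-LA, each effect being MRG-106 minus untreated on the scale log2(signal + 16). A gene was counted as opposite when both effects and their difference were called and the effects had opposite signs. That held for 1066 of the 11541 genes tested (9.24%). MRG-106, also named cobomarsen, is an oligonucleotide that binds miR-155. The day 4 arrays of both lines (16 arrays) and the day 8 arrays of the lines MJ and HuT78 (8 arrays each) are used below only to see where the same genes stood, each MRG-106 group again against its own untreated group of 4 arrays. All groups came from established lines of 1 patient each, and no group received a control oligonucleotide, so an effect of any oligonucleotide and one of inhibiting miR-155 cannot be told apart. The sources used here do not give the dose. At the day 4 split only untreated cells were counted, and MRG-106 wells received the dilution that this count set.

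MicroRNAs pair with messenger RNAs through their seed, shorten the life of those messages and lower the protein made from them. miR-155 is made from the transcript of MIR155HG, is induced by NF-kB and antigen receptor signals in lymphocytes and is high in many lymphomas. Its best known targets restrain PI3K and cytokine signalling, among them INPP5D and SOCS1. HuT102 carries the retrovirus HTLV-1. The mature strand that the inhibitor is directed against is shown because its seed defines the direct targets, whose behaviour is set against that of the opposite genes further on. It lies on chromosome 21 at chr21:25573983-25574006 (GRCh38.p14, plus strand, RefSeq), and the capitals mark the seed, bases 2 to 8.
hsa-miR-155-5p: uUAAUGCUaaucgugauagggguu

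The 16 arrays had been scaled by the authors to a common level, with a median signal of 58.2 to 90.6, an upper quartile of 381 to 464 and a correlation of log2 values between arrays of 1 group of 0.963 to 0.975. Of 7 T cell markers with a usable probe set, CD3D, CD3E, CD3G, CD247, CD2, CD4 and LCK, all lay above the median of all signals (74.0) in HuT102, and all but CD4 and LCK did so in MY-LA. Of the markers of other cell types, 2 of 6 epithelial ones, KRT8 and CDH1, lay above that median in MY-LA. There the list summed to 2360 to 2408 with MRG-106 and to 869 to 1055 without. In HuT102, KRT8 lay above it in both groups and KRT18 with MRG-106. The epithelial list summed there to 220 to 344 with MRG-106 and to 218 to 320 without. The fibroblast list had COL1A1 above the median in every group, DCN in both HuT102 groups and untreated MY-LA, and COL3A1 in both MY-LA groups. It summed to 1658 to 1872 with MRG-106 and 265 to 465 without in HuT102. In MY-LA it summed to 2984 to 3397 with MRG-106 and 3879 to 4982 without. The myeloid list, with CSF1R above the median in every group and CSF3R in HuT102 with MRG-106, stayed between 179 and 396 in all groups. The erythroid list, with HBB and EPOR above the median in every group, stayed between 930 and 1672. The part of these genes in the results below was not tested. The upper quartile of the signal was higher with MRG-106 than without in HuT102 (mean gap 25.9, arrays fully separated), and less so in MY-LA (mean gap 12.8, arrays overlapping). The median signal moved in opposite directions, with a mean gap of 7.83 in HuT102 and -3.81 in MY-LA, and arrays overlapped in both lines. The part of these shifts in the opposite calls was not tested. Nothing in the labels ties the 4 arrays of a group to separate cultures. The p-values therefore measure only how these samples vary, which may be technical, and the number of arrays limits the precision.

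MRG-106 changed many genes in each line at day 8. In HuT102 it raised 2193 of the 11541 genes (19.0%) and lowered 2459 (21.3%), and in MY-LA it raised 2599 (22.5%) and lowered 2024 (17.5%), at a limma adjusted p under 0.05. The effect differed between the lines for 4506 genes, higher in HuT102 for 2009 (17.4%) and lower in HuT102 for 2497 (21.6%). Of these 4506, 1467 were called in HuT102 alone, 1380 in MY-LA alone, 378 in both lines in the same direction and 215 in neither. The remaining 1066 went opposite ways. In 417 of them (3.61% of tested genes) HuT102 was higher and MY-LA lower, and in 649 (5.62%) HuT102 was lower and MY-LA higher. For comparison, 1332 genes were called in the same direction in both lines, 719 higher and 613 lower. Across all tested genes the correlation of the effects in HuT102 and MY-LA was 0.0884, given as a description over genes that are not independent.

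Many of the opposite changes were small. The smaller of the 2 absolute log2 changes had a median of 0.36 over the 1066 genes and was at least 0.5 in 297 of them, 135 with HuT102 higher and 162 with HuT102 lower. The gene just inside that limit was FEN1, a flap endonuclease of DNA replication, at -0.50 in HuT102 and 0.61 in MY-LA, and the gene just outside was LMBR1, at -0.54 and 0.50. Both changes reached 2-fold in 36 genes, 29 with HuT102 higher and 7 with HuT102 lower. In 752 of the 1066 genes the MRG-106 and untreated arrays did not overlap in either line. The calls that chose these genes came from the same arrays, which favours such separation. Its share over all tested genes is not given here, so the count is a description only. In 21 of the 1066 genes both groups of a line lay under the median signal, so that the change there was one among dim values. Of these 21, 19 were among the 297 genes with both changes of at least 0.5. Another probe set of the same gene was tested for 569 opposite genes. It gave the same call of the difference for 441 and the reverse call for 6. Over all 21800 probe sets tested, the difference was called higher in HuT102 for 3424 and lower for 4093. When each array was instead centred on the median of its tested genes, 504 genes were opposite with HuT102 higher and 458 with HuT102 lower, so the balance of the directions depended on the scaling. With that centring the share of higher calls was 54.9% in place of 44.6% for the difference, 44.0% in place of 56.2% for MY-LA and 49.2% in place of 47.1% for HuT102.

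**Figure D1:**
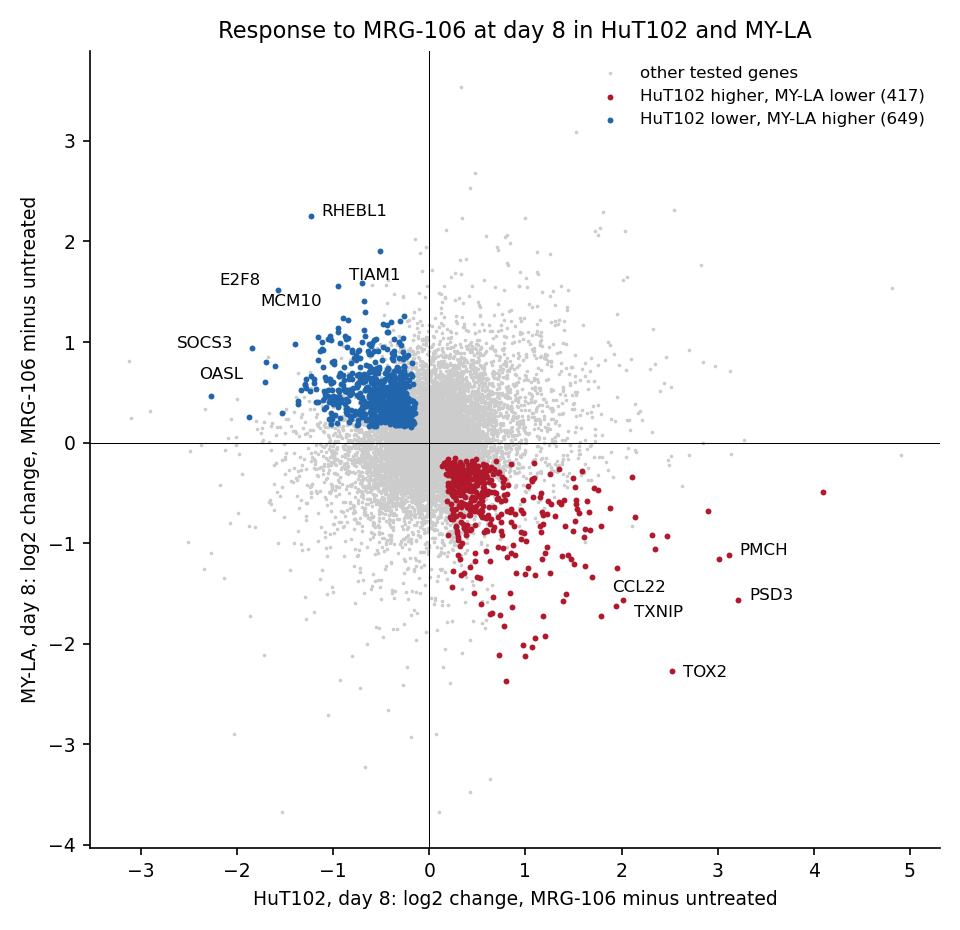
Each point is 1 of 11541 genes, with the log2 change (MRG-106 minus untreated, 4 arrays a group) in HuT102 across and in MY-LA upward. The 417 genes higher in HuT102 and lower in MY-LA fill the lower right and the 649 genes lower in HuT102 and higher in MY-LA the upper left.

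Of the gene lists described here, DNA replication had the most opposite members. Before a cell copies its DNA, E2F factors switch on the genes for origin licensing, the helicase and the polymerases. Of 41 tested genes of a list of replication and G1/S genes, MRG-106 lowered 35 and raised none in HuT102 (median log2 change -0.74), while it raised 32 and lowered none in MY-LA (median 0.53). Over all tested genes these medians were -0.00 and 0.02. The difference was called for 39 of the 41, all lower in HuT102, and 27 were opposite. In bulk RNA, fewer cells of a kind and less RNA per cell cannot be told apart. The promoters of GINS3 and UHRF1 are shown because each holds the letters that E2F factors are known to bind. Among opposite members with such a match they had the largest smaller change, and the capitals mark the match.
GINS3, chr16:58392221-58392520, plus strand: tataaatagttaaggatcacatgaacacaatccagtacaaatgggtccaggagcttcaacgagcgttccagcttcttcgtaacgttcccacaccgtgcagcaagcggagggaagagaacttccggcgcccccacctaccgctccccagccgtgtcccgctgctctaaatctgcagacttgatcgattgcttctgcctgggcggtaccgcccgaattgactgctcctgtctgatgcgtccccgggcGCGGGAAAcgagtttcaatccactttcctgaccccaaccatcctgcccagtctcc
UHRF1, chr19:4909251-4909550, plus strand: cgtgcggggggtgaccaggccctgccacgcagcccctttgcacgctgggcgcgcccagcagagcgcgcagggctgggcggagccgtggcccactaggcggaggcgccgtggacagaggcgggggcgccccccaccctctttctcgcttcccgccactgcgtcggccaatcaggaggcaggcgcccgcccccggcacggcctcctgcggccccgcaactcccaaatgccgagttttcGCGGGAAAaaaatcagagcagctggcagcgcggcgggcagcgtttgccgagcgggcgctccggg

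The windows run from 250 bases before to 50 bases after the start of the gene (GRCh38.p14, RefSeq). E2F letters were TTTGGCGC, TTTGGCGG, TTTCCCGC or TTTCGCGC on either strand. Such letters were found in 15 of the 24 opposite replication genes that had a promoter entry, in 23 of 37 of the whole list and in 936 of 27305 promoters in all (3.43%), or 5.77% of those of tested genes. Among all genes opposite with HuT102 lower the share was 12.4% (68 of 547), and among those with HuT102 higher it was 3.61% (13 of 360). These matches are a description of letters in a window.

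MCM10 helps activate the replicative helicase at origins. Its signal was 709.7, 649, 620.2 and 576 in HuT102 with MRG-106, against 1109, 1367, 1242 and 1090.1 in untreated HuT102. In MY-LA it was 2164, 2070.1, 2259 and 2159 with MRG-106, against 914, 935, 915 and 868 without. The groups did not overlap in either line, and the order of MRG-106 and untreated cells was reversed between the lines. The log2 change was -0.89 ± 0.09 in HuT102 and 1.24 ± 0.09 in MY-LA, a difference of -2.13 ± 0.12 (standard error, limma adjusted p = 4.90e-20), and all 3 of its probe sets gave the same call.

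UHRF1, which helps copy DNA methylation behind the replication fork, stood at 1823, 1724, 1582 and 1762 with MRG-106 and at 3365, 4001, 3071 and 3014 without in HuT102. In MY-LA it stood at 4117, 3906, 4211 and 4316 with MRG-106 and at 2272, 1801, 1761 and 1888 without. MRG-106 lowered it in HuT102 and raised it in MY-LA with no overlap, by log2 -0.95 ± 0.09 and 1.10 ± 0.09. GINS3 is a subunit of the GINS part of the helicase, and its signal was 322 ± 50.9 with MRG-106 and 669 ± 90.2 without in HuT102 (SD, n = 4). In MY-LA it was 1075 ± 55.2 with MRG-106 and 522 ± 53.9 without, and the difference of the log2 changes was -2.04 ± 0.16. E2F8, itself a repressor of the E2F family and an E2F target, had the widest gap of the list, with log2 changes of -1.57 ± 0.18 in HuT102 and 1.52 ± 0.18 in MY-LA.

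Further opposite members act at other steps of replication. MCM4, a helicase subunit, changed by -0.82 ± 0.07 in HuT102 and 0.79 ± 0.07 in MY-LA, and POLD1, the catalytic subunit of polymerase delta, by -1.29 ± 0.14 and 0.63 ± 0.14. RRM2, the ribonucleotide reductase subunit that limits the supply of deoxynucleotides, changed by -0.66 ± 0.08 and 0.77 ± 0.08. UNG, which removes uracil from new DNA, changed by -0.80 ± 0.08 and 0.92 ± 0.08. Not all genes of the list followed this pattern, and the activator E2F2 was among several that were not opposite. It was at 157 ± 40.8 with MRG-106 and 160.1 ± 34.5 without in HuT102. In MY-LA it was at 817 ± 62.1 with MRG-106 and 201 ± 18.3 without. Its change was called in MY-LA (log2 1.94 ± 0.17) and not in HuT102 (-0.04 ± 0.17, limma adjusted p = 0.893).

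**Figure D2:**
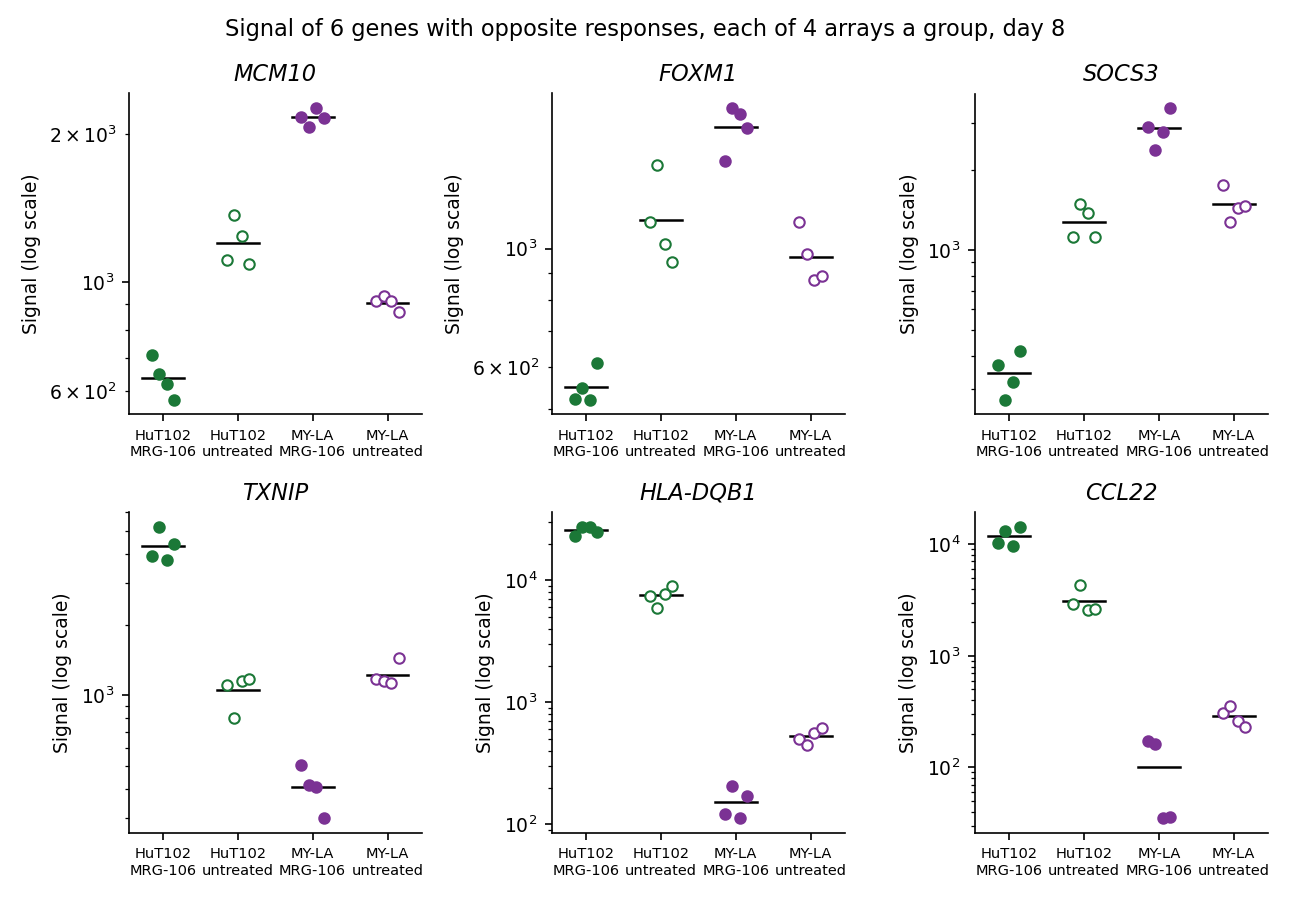
Signal on a log scale for each of the 4 arrays of a group (points) with the group mean (line), for MCM10, FOXM1, SOCS3, TXNIP, HLA-DQB1 and CCL22. In each panel the MRG-106 arrays lie on 1 side of the untreated arrays in HuT102 and on the other side in MY-LA.

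Mitotic genes fell in HuT102 as widely as replication genes, but in MY-LA they moved less. Of 40 genes of a list of mitosis and G2/M, 39 fell and 1 rose in HuT102 (median log2 change -0.95), while 10 rose and 4 fell in MY-LA (median 0.07). The difference was called for 37, all lower in HuT102, and 9 genes were opposite. FOXM1, the transcription factor that drives G2/M genes, was at 521, 548, 521 and 609 with MRG-106 and at 1122, 1438, 1022 and 945 without in HuT102. In MY-LA it was at 1462, 1837, 1794 and 1682 with MRG-106 and at 1123, 978, 874 and 887 without, and the groups did not overlap in either line. Its log2 change was -1.01 ± 0.18 in HuT102 and 0.80 ± 0.18 in MY-LA. AURKB, the kinase of the chromosomal passenger complex, changed by -0.92 ± 0.11 and 0.59 ± 0.11, and the proliferation antigen MKI67 by -0.96 ± 0.11 and 0.41 ± 0.11. KIF23, a motor of the cleavage furrow, fell by 1.79 ± 0.13 in HuT102 and changed by 0.14 ± 0.13 in MY-LA, which was not called (limma adjusted p = 0.443). MYBL2, which acts with the MuvB complex and FOXM1 and lies outside both lists, was at 667 ± 116 with MRG-106 and 1413 ± 282 without in HuT102. In MY-LA it was at 2063 ± 148 with MRG-106 and 1003 ± 109 without.

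Many G2/M genes carry the short element CHR (TTTGAA), to which MuvB complexes bind. CHR letters were present on either strand in 23 of 33 promoters of the mitotic list and in 6 of the 7 available for its opposite members, against 15.4% of all promoters and none of the 24 of opposite replication genes. Of the promoters of tested genes 10.2% held them. Among all genes opposite with HuT102 lower the CHR share was 12.1%, and among those with HuT102 higher it was 11.4%. The promoter of NCAPG, a condensin subunit, is shown, which among opposite members with a match had the largest smaller change (-0.82 ± 0.08 in HuT102 and 0.65 ± 0.08 in MY-LA), with the match in capitals.
NCAPG, chr4:17810729-17811028, plus strand: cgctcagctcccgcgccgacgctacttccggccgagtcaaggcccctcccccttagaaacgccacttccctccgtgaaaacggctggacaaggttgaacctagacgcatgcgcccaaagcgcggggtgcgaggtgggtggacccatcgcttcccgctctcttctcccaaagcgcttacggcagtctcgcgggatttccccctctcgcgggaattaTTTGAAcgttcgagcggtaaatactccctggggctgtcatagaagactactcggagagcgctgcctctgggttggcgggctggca

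**Figure D3:**
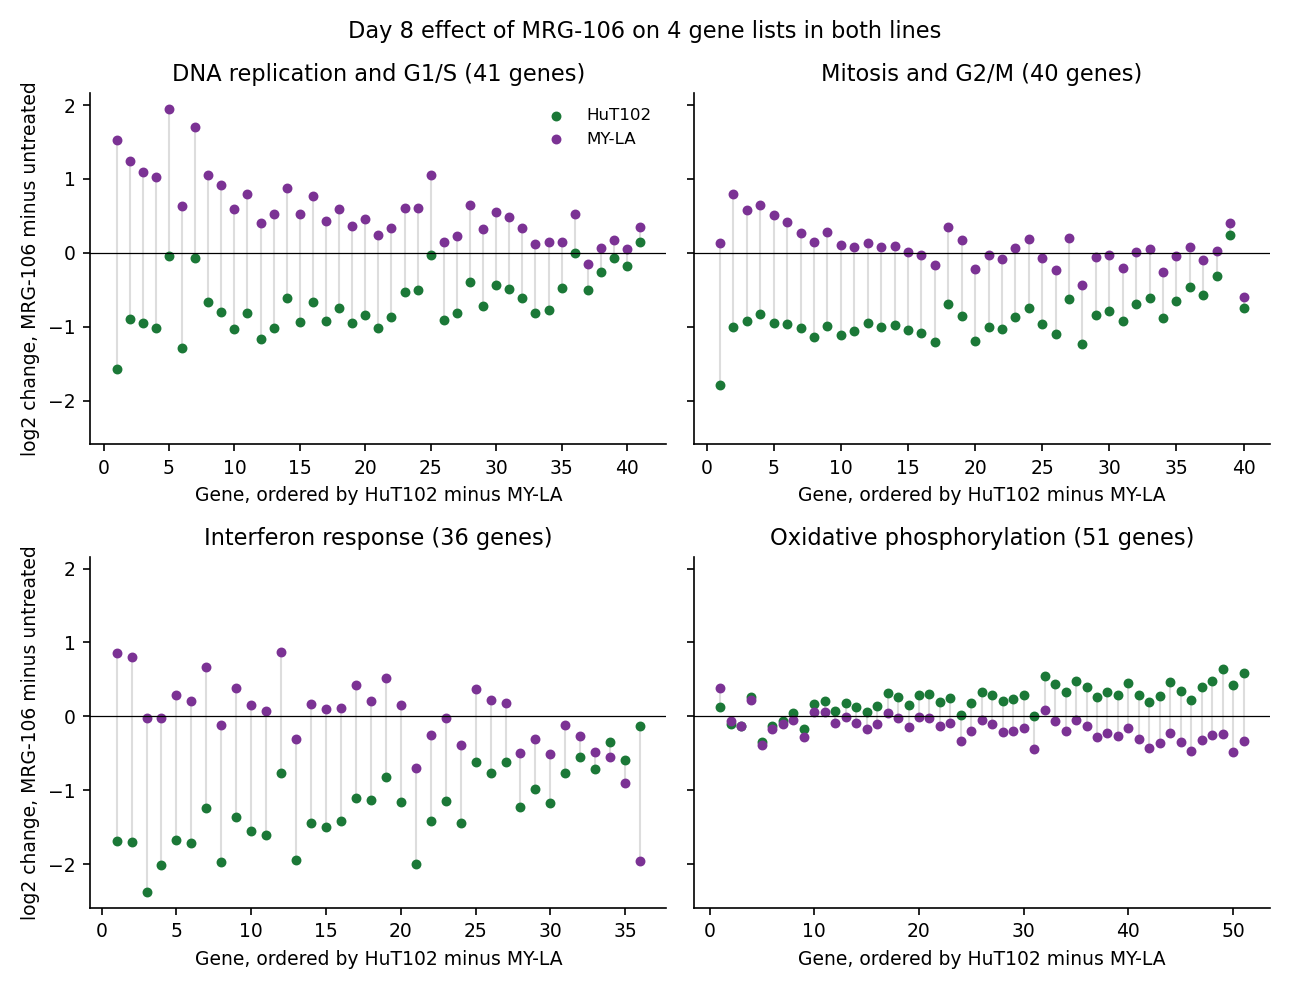
Log2 change (MRG-106 minus untreated) of every tested gene of 4 lists, HuT102 and MY-LA joined by a grey line and ordered by HuT102 minus MY-LA. The lines lie on either side of 0 over most of the replication list, and in the mitotic and interferon lists most HuT102 points lie below 0 with MY-LA points around 0.

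Genes of ribosome biogenesis and MYC followed the replication genes in direction, with smaller changes. Of 29 tested, 12 fell and 2 rose in HuT102 (median -0.16), while 19 rose and 1 fell in MY-LA (median 0.31), and 9 were opposite. MYC, the growth regulator that drives ribosome production, was at 3417, 3807, 3445 and 3106 with MRG-106 and at 5656, 5255, 5552 and 5924 without in HuT102. In MY-LA it was at 8697, 9814, 9269.5 and 9049 with MRG-106 and at 8091, 6730.4, 8279 and 6839 without. The log2 changes were -0.70 ± 0.09 and 0.30 ± 0.09, with a limma adjusted p of the difference of 2.02e-08. NOLC1, a nucleolar scaffold, changed by -0.27 ± 0.08 and 0.76 ± 0.08, and GAR1, a protein of the H/ACA particles that modify ribosomal RNA, by -0.39 ± 0.10 and 0.89 ± 0.10. With each array centred on its median, or with the mean of a gene's probe sets, 5 of the list were opposite. RHEBL1, a small GTPase of the Rheb family that activates mTORC1, came next after E2F8 in the size of the smaller change among genes with HuT102 lower. It stood at 217, 305, 383 and 179 with MRG-106 and at 662, 529.7, 628 and 728 without in HuT102, and at 2133, 2069, 2125 and 2208 with MRG-106 and 413, 504, 449.9 and 378 without in MY-LA. The log2 changes were -1.23 ± 0.13 and 2.26 ± 0.13.

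Among called genes linked with growth arrest, more rose than fell in HuT102 and more fell than rose in MY-LA. FOXO factors and p53 switch on genes that slow the cycle and restrain growth signals. Of 20 tested FOXO and quiescence genes, 17 rose and 1 fell in HuT102 (median 0.83), and 3 rose and 6 fell in MY-LA (median 0.03). Of 22 tested p53 targets, 8 rose and 3 fell in HuT102 (median 0.19), and none rose and 12 fell in MY-LA (median -0.34). The opposite members numbered 5 and 6, all with HuT102 higher. Of the FOXO and quiescence genes, 3 rose in both lines, among them FOXO3 (1.64 ± 0.07 in HuT102 and 0.29 ± 0.07 in MY-LA). TXNIP, which limits glucose uptake and binds thioredoxin, was at 3897, 5219, 3753 and 4399 with MRG-106 and at 1104, 798, 1150.5 and 1173 without in HuT102. MY-LA arrays read 503, 414, 408 and 300.5 with MRG-106 and 1176, 1156, 1128 and 1437 without. It was 4.05-fold higher in HuT102 and 2.97-fold lower in MY-LA on the log2(signal + 16) scale, a log2 difference of 3.59 ± 0.18 (limma adjusted p = 7.19e-22), and its 3 probe sets gave the same call.

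SESN1, a sestrin that inhibits mTORC1, was at 1546, 1348, 1508 and 1339 with MRG-106 and at 446, 536, 528 and 568 without in HuT102. MY-LA cells had 694, 692, 657 and 685 with MRG-106 and 1298, 1506, 1678 and 1511 without. No MRG-106 array lay inside the untreated range in either line, and the log2 changes were 1.44 ± 0.09 and -1.11 ± 0.09. TSC22D3, the glucocorticoid-induced leucine zipper, changed by 1.76 ± 0.10 and -0.47 ± 0.10. IL7R, the receptor chain for interleukin 7 and a FOXO1 target, changed by 0.88 ± 0.21 and -0.83 ± 0.21. TP53INP1, a stress protein that is both a p53 target and a published miR-155 target, changed by 1.50 ± 0.12 and -1.21 ± 0.12, and was not opposite with the mean of its probe sets. BCL2L11, which encodes the death-promoting protein BIM, rose in HuT102 (1.89 ± 0.16) and was not called in MY-LA (0.24 ± 0.16, limma adjusted p = 0.252).

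Antigen presentation by MHC class II formed a further group. Activated human T cells carry these molecules, whose genes depend on the coactivator CIITA. Of 12 tested class II genes, 10 rose and none fell in HuT102 (median log2 change 1.30), while 1 rose and 7 fell in MY-LA (median -0.38). The difference was higher in HuT102 for all 12, and 5 were opposite. HLA-DQB1, a class II beta chain, was at 23318, 27498, 27637 and 24766 with MRG-106 and at 7449, 5927, 7731 and 9074 without in HuT102. The MY-LA signal was 122, 205, 112 and 171 with MRG-106 and 505, 445, 559 and 618 without. MRG-106 arrays were all higher in HuT102 and all lower in MY-LA, with log2 changes of 1.78 ± 0.14 and -1.72 ± 0.14. All 6 tested probe sets of HLA-DQB1 gave the same call. The chosen one is of a type whose probes can match related sequences, and the lines may carry different alleles, so levels are not compared between lines.

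HLA-DPB1, another beta chain, was bright in both lines, at 23880.1, 26614, 26598 and 24349 with MRG-106 and 9071, 7514, 8606 and 10552 without in HuT102. MY-LA arrays read 19806, 14646, 17122 and 19762 with MRG-106 and 23703, 22164, 25098 and 25518 without. Its log2 changes were 1.51 ± 0.09 and -0.44 ± 0.09. HLA-DOA, part of the peptide-loading modulator HLA-DO, changed by 1.41 ± 0.10 and -0.57 ± 0.10. HLA-DRA was at 40408 ± 3841 with MRG-106 and 17743 ± 3409 without in HuT102, but in MY-LA both groups lay under the median signal, at 4.50 ± 1.70 with MRG-106 and 32.4 ± 24.0 without. HLA-DQB2 was called in MY-LA alone, at 151 ± 45.5 with MRG-106 and 1801 ± 134 without. CIITA, singled out after its values were seen, was higher with MRG-106 in both lines, by log2 2.34 ± 0.18 in HuT102 and 0.78 ± 0.18 in MY-LA. B cells carry class II molecules too, and of 5 B cell markers with a probe set, 4 lay above the median signal with MRG-106 (MS4A1, CD79A, PAX5 and BLK) and 2 without (CD79A and PAX5) in HuT102. In MY-LA, CD79A and BLK lay above it in both groups and PAX5 in untreated cells. The 5 B cell markers summed to 2180 to 2623 with MRG-106 and to 1565 to 1918 without in HuT102. In MY-LA they summed to 443 to 645 with MRG-106 and 569.8 to 653 without. Their part in the class II values was not tested. The promoter of HLA-DQB1 is shown because class II promoters are known for a Y box, bound by the factor NF-Y. The letters CTGATTGG were searched on both strands and are in capitals. They occurred in 1 of 4 available promoters of opposite class II genes, in 4 of 10 of the list and in 4.16% of all promoters. The share was 5.45% for tested genes, 7.50% for all genes opposite with HuT102 higher and 6.03% for those with HuT102 lower.
HLA-DQB1, chr6:32666608-32666907, minus strand: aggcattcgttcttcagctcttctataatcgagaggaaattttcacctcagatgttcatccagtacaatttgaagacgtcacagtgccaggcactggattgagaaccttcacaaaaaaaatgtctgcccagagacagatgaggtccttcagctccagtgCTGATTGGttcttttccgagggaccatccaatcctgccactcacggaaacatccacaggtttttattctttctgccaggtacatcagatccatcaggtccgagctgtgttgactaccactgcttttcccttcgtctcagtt

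**Figure D4:**
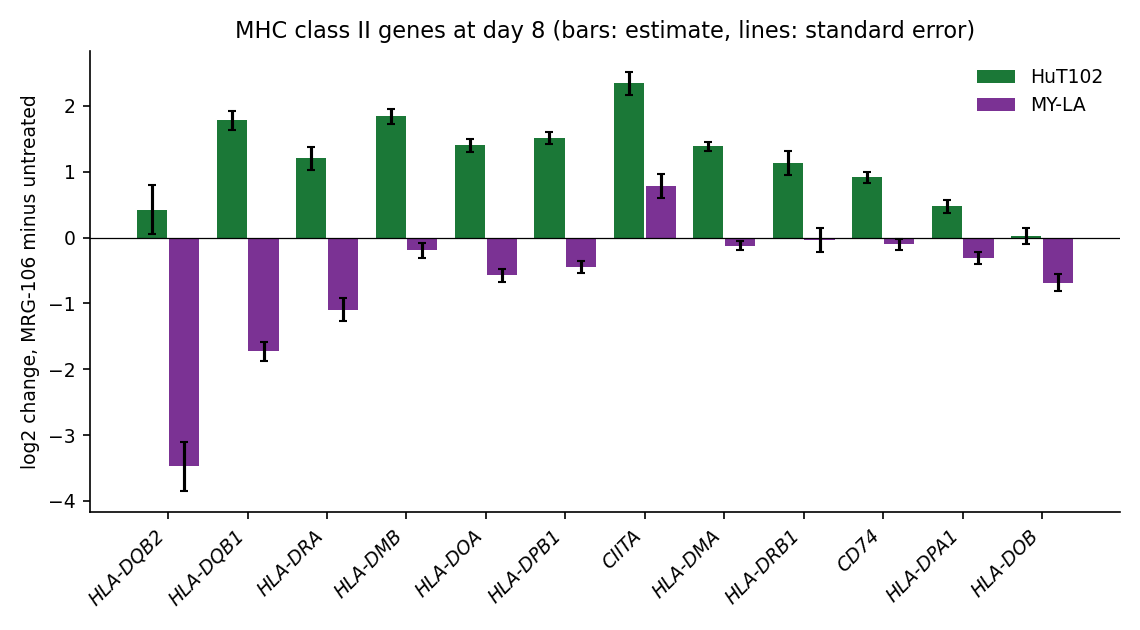
Log2 change (MRG-106 minus untreated) at day 8 of the 12 tested MHC class II genes, with HuT102 left of MY-LA for each gene. Bars are limma estimates and lines their standard errors (4 arrays a group). For HLA-DRA the MY-LA bar rests on signals under the median of all signals.

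Chemokines and other NF-kB targets also diverged. Of 31 tested, 18 rose and 5 fell in HuT102 (median 0.44), while 5 rose and 12 fell in MY-LA (median -0.17), and 8 were opposite, all with HuT102 higher. CCL17 and CCL22 are the ligands of CCR4, the receptor that guides T cells to skin. CCL17 was at 15846, 18504, 18769 and 15841 with MRG-106 and at 5037, 5086, 5226 and 5925 without in HuT102. MY-LA cells had 441, 544, 504 and 478 with MRG-106 and 1066, 1391, 1358 and 1272 without. The log2 changes were 1.69 ± 0.17 and -1.34 ± 0.17. CCL22 was at 10226, 13113, 9668 and 14388 with MRG-106 and at 2892, 4342, 2582 and 2606 without in HuT102. The MY-LA signal was 173, 161, 35.1 and 35.8 with MRG-106, where a pair of arrays lay far above the other pair, and at 305, 354, 259.8 and 229 without. The groups still did not overlap, and the log2 difference was 3.57 ± 0.40. CCL5, a chemokine for effector T cells, changed by 1.07 ± 0.11 and -0.38 ± 0.11, and EBI3, the shared subunit of interleukins 27 and 35, by 0.49 ± 0.13 and -1.33 ± 0.13.

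Opposite genes of T cell identity and costimulation mostly had HuT102 higher, while those of helper T cytokines and receptors were split. Of 42 tested genes of T cell identity and costimulation, 9 were opposite with HuT102 higher and 1 with HuT102 lower. Of 34 tested helper T cytokines and receptors, 4 and 4 were. Over all tested genes the shares were 3.61% with HuT102 higher and 5.62% with HuT102 lower. TNFSF4, the OX40 ligand, was at 15192, 16219.9, 16708 and 16383 with MRG-106 and at 4345, 3809, 4118 and 4401 without in HuT102. MY-LA arrays read 3363, 3206, 3233 and 3385 with MRG-106 and 7699, 7466, 8337 and 7879 without. Its log2 difference of 3.20 ± 0.11 had a limma adjusted p of 3.79e-29. ICOS, a costimulatory receptor, was at 717 ± 92.6 with MRG-106 and 84.6 ± 28.9 without in HuT102, and at 6321 ± 479 with MRG-106 and 10159.9 ± 603 without in MY-LA. CD48, an adhesion molecule of lymphocytes, changed by 0.98 ± 0.12 and -0.57 ± 0.12, and IL9R, the receptor of interleukin 9, by 1.62 ± 0.13 and -0.85 ± 0.13.

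In the other direction, TNFRSF8 encodes an activation marker that is a drug target in lymphomas. It was at 2554 ± 235 with MRG-106 and 6612 ± 427 without in HuT102, and at 946 ± 58.3 with MRG-106 and 709.7 ± 113 without in MY-LA. IL15RA, which presents interleukin 15, changed by -0.94 ± 0.11 in HuT102 and 0.67 ± 0.11 in MY-LA. CTLA4, an inhibitory receptor and published miR-155 target, was at 80.6 ± 33.9 with MRG-106 and 40.1 ± 24.7 without in HuT102, near the median signal, and at 251 ± 50.8 with MRG-106 and 729 ± 94.8 without in MY-LA. Its opposite call was lost when any of 3 HuT102 arrays (MRG-106 replicates 1 and 4, untreated replicate 1) was left out. These 3 losses were of the HuT102 call.

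Interferon-response genes fell in HuT102 with little common movement in MY-LA. Of 36 tested, 33 fell and none rose in HuT102 (median -1.23), while 6 rose and 7 fell in MY-LA (median 0.08), and 6 were opposite. The difference was lower in HuT102 for 30 and higher for 2, TRIM22 and BST2, named after their values were seen, both of which fell in MY-LA. TRIM22, a restriction factor, changed by -0.14 ± 0.09 in HuT102 and -1.96 ± 0.09 in MY-LA. OASL, an antiviral protein related to the oligoadenylate synthetases, was at 1994, 2544, 2355 and 2021 with MRG-106 and at 7569, 5634, 7638 and 8511 without in HuT102. MY-LA cells had 979.7, 892, 769 and 1022 with MRG-106 and 509.6, 510.1, 497 and 546 without. The log2 changes were -1.70 ± 0.13 and 0.80 ± 0.13. IFIT3, an interferon-induced protein that binds foreign RNA together with its partners, changed by -1.23 ± 0.12 and 0.66 ± 0.12, with no overlap in either line. USP18, the protease that removes ISG15 and dampens the interferon receptor, was at 637 ± 39.6 with MRG-106 and 3419 ± 684 without in HuT102, and at 11.8 ± 3.21 with MRG-106 and 12.4 ± 4.42 without, both under the median signal, in MY-LA. SOCS3 is a feedback inhibitor of cytokine receptors that STAT3 induces. It stood at 369, 273, 318 and 415 with MRG-106 and 1119.6, 1488, 1376 and 1119 without in HuT102, and at 2908, 2383, 2774 and 3423 with MRG-106 and 1752, 1275, 1440.3 and 1467 without in MY-LA. Its log2 changes were -1.85 ± 0.17 and 0.94 ± 0.17, and its 3 tested probe sets gave the same call. In its list of 23 cytokine signalling genes the other opposite member was PIM2, a survival kinase, which changed by 0.74 ± 0.16 in HuT102 and -0.87 ± 0.16 in MY-LA. The promoter of IFIT3 is shown because the interferon-stimulated response element, searched on both strands as GAAA, any 2 bases and GAAA again, occurs in it at 2 places in capitals. All 5 available promoters of opposite interferon genes held it, as did 19 of 29 of the list and 3.65% of all promoters. The share was 2.96% for tested genes, 3.47% for all genes opposite with HuT102 lower and 1.67% for those with HuT102 higher.
IFIT3, chr10:89327747-89328046, plus strand: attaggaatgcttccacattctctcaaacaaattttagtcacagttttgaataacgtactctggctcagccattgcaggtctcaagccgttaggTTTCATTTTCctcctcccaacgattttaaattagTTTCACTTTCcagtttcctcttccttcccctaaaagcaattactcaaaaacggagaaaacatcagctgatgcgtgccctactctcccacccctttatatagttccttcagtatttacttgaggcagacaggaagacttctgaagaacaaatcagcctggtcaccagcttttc

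Over all promoters, matches of the E2F and response-element letters overlapped in 4, those of CHR and the response element in 23 and those of the response element and the Y box in 1, and the other pairs overlapped in none.

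Respiratory chain genes shifted apart by small amounts. Of 51 tested genes of oxidative phosphorylation, 33 rose and 1 fell in HuT102 (median 0.26), while 2 rose and 20 fell in MY-LA (median -0.15), and 16 were opposite. NDUFB5, a subunit of complex I, was at 13325, 13730.3, 14895 and 12680.4 with MRG-106 and at 10043, 9274, 9870.2 and 11349 without in HuT102. The MY-LA signal was 7901, 8179, 8208 and 8027 with MRG-106 and 9284, 11726, 13149.5 and 11326 without, again with no overlap. The log2 changes were 0.43 ± 0.09 and -0.48 ± 0.09. COX6B1, a subunit of complex IV, changed by 0.48 ± 0.08 and -0.26 ± 0.08, and its MY-LA arrays overlapped between the groups. The number of opposite genes of the list was 9 without MY-LA untreated replicate 3 and 10 without MY-LA MRG-106 replicate 1, with no filter on dim genes, and with the mean of a gene's probe sets. The upper quartile of the signal was also higher with MRG-106 in HuT102, as given above. After quantile normalization, which gives all arrays the same distribution of values, 11 genes of the list were opposite. The difference was then higher in HuT102 for 29 of 51 (median 0.29), in place of 33 (median 0.38). The part of the upper quartile in these values was not tested further. None of 30 tested cytosolic ribosomal protein genes was opposite, and 1 was with centring, but their difference was higher in HuT102 for 15 of 30 (median difference 0.30), and for 2 of 30 (median 0.03) after quantile normalization.

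Most published targets of miR-155 that were called rose, in both lines. Of 47 tested, 29 rose and 4 fell in HuT102 (median 0.52), and 30 rose and 2 fell in MY-LA (median 0.47), 24 of them rising in both. The difference was called for 11 higher in HuT102 and 7 lower in HuT102, with a median of 0.01, so some targets moved by unlike amounts in the lines. PICALM, which helps assemble clathrin coats, had a log2 difference of -0.07 ± 0.15 (limma adjusted p = 0.746). The myosin MYO10 rose in both lines, by 1.53 ± 0.19 in HuT102 and by 3.09 ± 0.19 in MY-LA, where it rose more (difference -1.56 ± 0.27). Among the 47 targets, 3 were opposite, where 9.24% of all tested genes were. These were CTLA4 and TP53INP1, given above, and MSH6, a mismatch repair gene that is also an E2F target, which changed by -0.87 ± 0.08 in HuT102 and 0.43 ± 0.08 in MY-LA. With the mean of its probe sets MSH6 was not opposite. Genes of cholesterol and fatty acid synthesis mostly fell, with 21 of 26 lower in HuT102 and 22 lower in MY-LA, 17 in both. The size of the change often differed, and the difference was called for 6 higher in HuT102 and 9 lower in HuT102. SCD, the desaturase of newly made fatty acids, changed by -2.35 ± 0.11 in HuT102 and -1.26 ± 0.11 in MY-LA. SREBF1, a transcription factor of lipid synthesis, was at 271 ± 86.0 with MRG-106 and 1088 ± 78.4 without in HuT102, and at 749 ± 132 with MRG-106 and 544 ± 47.9 without in MY-LA, where the change was not called (limma adjusted p = 0.0577). The 1 opposite member was STARD4, a carrier of cholesterol between membranes, at 11136 ± 247 with MRG-106 and 8927 ± 991 without in HuT102, and at 6704 ± 379.6 with MRG-106 and 16683 ± 633 without in MY-LA.

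Further pathways had opposite members in numbers to be read against 9.24% of all tested genes, or 3.61% with HuT102 higher and 5.62% with HuT102 lower. Of 23 tested genes of PI3K, AKT and mTOR signalling, 11 rose in HuT102 and 11 in MY-LA, 7 in both, and none was opposite. Of 36 tested genes of the integrated stress and unfolded protein responses, 2 were opposite with HuT102 higher and 4 with HuT102 lower. Of 36 lysosome and autophagy genes, 3 and 1 were opposite, and of 26 hypoxia genes 1 and 2 were. Of 18 genes of the BCL2 family, which sets the threshold of cell death, 2 were opposite with HuT102 higher, and the difference was higher in HuT102 for 9 and lower for none. Proteasome, glycolysis and mitochondrial ribosome genes had 1, 1 and 2 opposite members of 27, 16 and 52 tested, and MHC class I presentation genes had none of 16.

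Other opposite genes with large changes belonged to no list. TIAM1, which activates the GTPase RAC1, was at 779.7, 776, 776 and 902 with MRG-106 and at 1410.2, 1455, 1673 and 1767 without in HuT102. MY-LA arrays read 314, 291, 287 and 297 with MRG-106 and 94.3, 82.4, 110.2 and 76.9 without, and the log2 changes were -0.95 ± 0.09 and 1.56 ± 0.09. SEMA4B, a membrane semaphorin, changed by -1.03 ± 0.22 and 1.06 ± 0.22. TOX2, an HMG-box transcription factor of T cells, was at 645, 673, 675 and 887 with MRG-106 and 81.2, 129, 144 and 98.0 without in HuT102, and at 5.30, 1.33, 5.92 and 12.1 with MRG-106 and 116, 87.5, 95.5 and 63.8 without in MY-LA. It had the largest smaller change of all opposite genes with no overlap in either line, although the MY-LA signals with MRG-106 were near 0. FHL2, a LIM-domain cofactor, was at 251 ± 31.3 with MRG-106 and 103 ± 21.2 without in HuT102, and at 211 ± 25.3 with MRG-106 and 731 ± 48.9 without in MY-LA. PMCH, the precursor of melanin-concentrating hormone, was at 2789 ± 229 with MRG-106 and 314 ± 75.9 without in HuT102, and at 1979 ± 231 with MRG-106 and 4368 ± 1044 without in MY-LA. PSD3, an exchange factor for the GTPase ARF6, was at 416 ± 44.6 with MRG-106 and 30.5 ± 5.42 without in HuT102, and at 91.1 ± 24.9 with MRG-106 and 296 ± 27.2 without in MY-LA. In each of these the MRG-106 and untreated arrays were apart in both lines and in reversed order. The rule for naming genes itself selects for such genes, so this is no separate result.

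Among the largest differences of all were genes that changed far more in HuT102 than in MY-LA. In MY-LA all of those named here except PLAU lay under the median signal. BHLHE22, a basic helix-loop-helix repressor, was at 1452 ± 222 with MRG-106 and 36.6 ± 21.2 without in HuT102, and at 16.4 ± 12.1 with MRG-106 and 26.0 ± 33.8 without in MY-LA. PLAU, the urokinase protease, was at 4013 ± 919.9 with MRG-106 and 217 ± 31.6 without in HuT102, and at 195 ± 31.8 with MRG-106 and 278 ± 13.8 without in MY-LA, where its smaller fall was called too. COL6A3, a collagen chain, was at 586 ± 127 with MRG-106 and 5143 ± 287 without in HuT102, with MY-LA under the median signal at 24.2 ± 3.92 with MRG-106 and 6.99 ± 2.73 without. TNFSF13B, the B cell survival factor BAFF, was at 332 ± 44.2 with MRG-106 and 3000.5 ± 477 without in HuT102, and at 52.2 ± 11.9 with MRG-106 and 41.8 ± 12.4 without in MY-LA. In HuT102 the MRG-106 and untreated arrays of these genes were far apart, and of the 4 only PLAU was called in MY-LA.

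The transcript that yields miR-155 itself went opposite ways with the authors' scaling, by amounts that depended on the scaling. The platform annotation gives its only probe set both symbols, MIR155 and MIR155HG, and it was therefore tested apart by exact permutation. Its signal was 28228, 30333, 32332 and 28731 with MRG-106 and 25148, 23123, 23944 and 25498 without in HuT102. In MY-LA it was 21292, 19561, 21039 and 22115 with MRG-106 and 25877, 23141, 25820.0 and 24935 without. The groups did not overlap in either line. The log2 change was 0.29 in HuT102 and -0.25 in MY-LA (two-sided exact permutation p = 0.0286 each, the smallest possible with 4 against 4). Their difference was 0.54 (exact permutation of treatment within each line, two-sided, p = 0.000408, the smallest of 4900 permutations). After quantile normalization the difference was 0.26 (exact permutation p = 0.00694). The HuT102 change was then 0.10 (exact permutation p = 0.0286) and the MY-LA change -0.16 (exact permutation p = 0.257). Without MY-LA MRG-106 replicate 2 the MY-LA change was -0.21 (exact permutation p = 0.0571).

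At day 4 the difference between the lines was already seen for part of these genes. The day 4 arrays entered the choice of genes only through the spread that the model pools over all arrays. Of 416 tested genes with HuT102 higher and MY-LA lower at day 8, 229 had a called day 4 difference in the same direction and 1 in the reverse, where 6.83% of all genes were called higher. Of 649 with HuT102 lower and MY-LA higher, 341 had a called day 4 difference in the same direction and 0 in the reverse, where 9.51% of all were called lower. The median day 4 difference was 0.44 and -0.39, against 1.02 and -0.94 at day 8. With the same probe sets and filter median, genes were also called in the 16 day 8 arrays alone and tested in the 16 day 4 arrays alone. Of 449 with HuT102 higher, 220 had the same call at day 4 and 1 the reverse, against 6.03% of all genes called higher. Of 641 with HuT102 lower, 278 had the same call and 1 the reverse, against 7.95% of all called lower. Both lines were called in opposite directions at day 4 for 52 and 80 of these genes, where 0.635% and 1.13% of all genes were. A larger difference at day 8 than at day 4 was called for 209 and 317 of them and a smaller one for 0 and 0, but the genes were chosen for their day 8 values, which favours that direction.

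Replication genes showed the same order at day 4. The difference was lower in HuT102 for 26 of 41, with medians of -0.36 in HuT102 and 0.13 in MY-LA, and 9 were opposite. The MHC class II difference was higher in HuT102 for 8 of 12, with 10 higher in HuT102 and 2 higher and 2 lower in MY-LA. Of 51 oxidative phosphorylation genes, 1 had a higher and 1 a lower difference at day 4. TIAM1 already differed at day 4 by -2.38 ± 0.13, close to its day 8 difference of -2.51 ± 0.13. FHL2, in contrast, had a day 4 difference of 0.23 ± 0.22 (limma adjusted p = 0.515), and CCL22 one of 0.75 ± 0.40 (0.208). The day 4 change of the miR-155 transcript was 0.37 in HuT102 (exact permutation p = 0.0286) and -0.10 in MY-LA (exact permutation p = 0.143), a difference of 0.47 (exact permutation p = 0.00204).

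**Figure D5:**
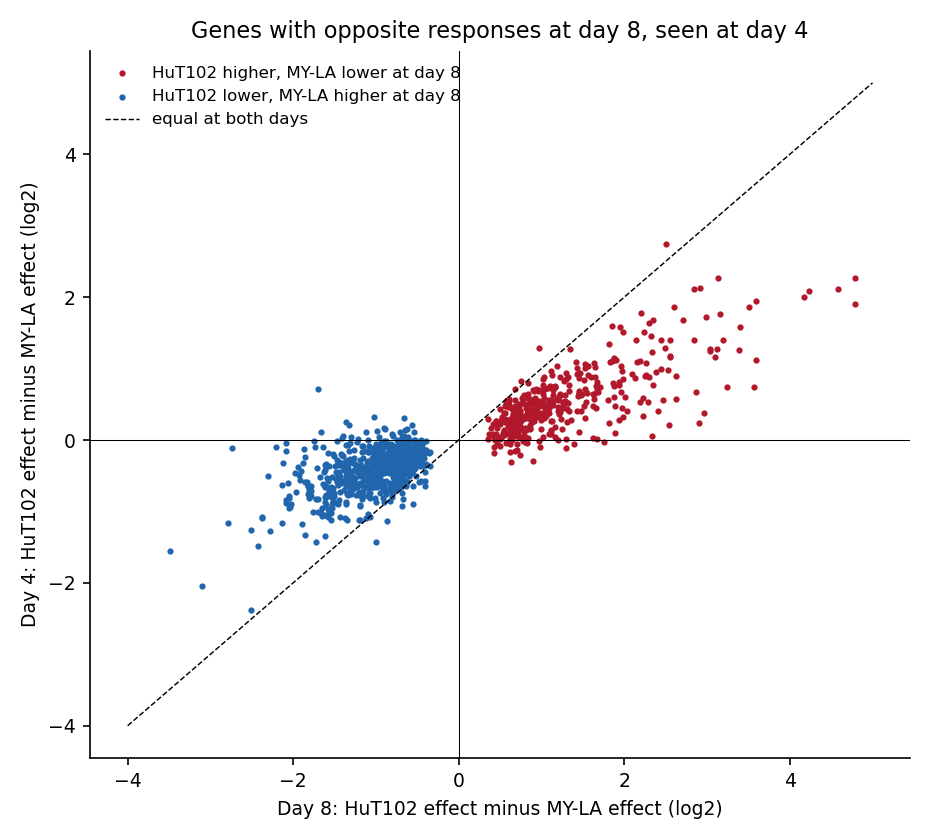
The HuT102 effect minus the MY-LA effect (log2) of the opposite genes at day 8 (across) and at day 4 (upward), with the line of equal values. Most genes lie on the same side of 0 at both days and nearer to 0 at day 4.

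Untreated cells of the lines differed in the levels of these genes before day 8. In untreated arrays of day 4, 33.7% of all tested genes were higher and 35.7% lower in HuT102 than in MY-LA. Of the 416 genes that MRG-106 raised in HuT102 and lowered in MY-LA, 100 were higher and 270 lower in untreated HuT102 (median log2 difference -0.58). Of the 649 that it lowered in HuT102 and raised in MY-LA, 361 were higher and 138 lower in untreated HuT102 (median 0.29). The labels number the lines in separate runs, so line and run cannot be told apart in such levels. ICOS was lower in untreated HuT102 than in untreated MY-LA, with a log2 difference of -5.75 ± 0.10, and so was SESN1 at -1.45 ± 0.09, while MCM4 was higher at 1.12 ± 0.07.

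In MJ at day 8 the genes lower in HuT102 and higher in MY-LA fell more often than they rose, while the other opposite genes were split. MJ, like HuT102, carries HTLV-1, and 14.9% of all tested genes rose and 19.1% fell in it. Of the 417 genes with HuT102 higher, 95 rose and 107 fell in MJ, and of the 649 with HuT102 lower, 68 rose and 266 fell (41.0%). In HuT78, where 10.4% of all tested genes rose and 11.2% fell, the counts were 79 and 39 of 417, and 78 and 66 of 649. The upper quartile of the signal in HuT78 was 430, 377, 382 and 380 with MRG-106 and 441, 440, 438 and 420 without. The part of these levels in the HuT78 counts was not tested. MCM10 and E2F8 fell in MJ, with log2 changes of -0.52 ± 0.09 and -0.69 ± 0.18, and changed by 0.06 ± 0.09 and -0.22 ± 0.18 in HuT78, which was not called. TXNIP rose in MJ (limma adjusted p = 9.41e-09) and was at 0.03 ± 0.13 in HuT78, which was not called. SESN1 and TNFSF4 fell in MJ, as they did in MY-LA, with log2 changes of -0.47 ± 0.09 and -3.16 ± 0.08. SOCS3 fell in MJ and HuT78, as it did in HuT102, with log2 changes of -0.94 ± 0.17 and -0.80 ± 0.17.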

How the data were processed

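RNA of each sample was hybridized to 1 Affymetrix array, per the labels' protocols. The authors deposited signal intensity on a linear scale, made with MAS5 per the submitters' processing notes. A mean trimmed by 2% at each end was 495 to 498 in all arrays. The genome build is not given in the sources used here. Per the platform annotation, 1 gene symbol was given to 41091 of 54675 probe sets, which were used for genes, while 1801 had several symbols, 11721 had no symbol and 62 were control probe sets. The brightest probe set on average stood for each of 19775 genes.

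Groups were taken from the labels. Values were log2(signal + 16), and a gene was tested when its mean over the 16 arrays reached the median of all signals (74.0). A limma model (limma 3.58.1, R 4.3.3) held the means of all 14 groups in the 56 arrays, which left 42 residual degrees of freedom and pools the spread over all lines. It used an intensity trend, two-sided tests and p-values adjusted by Benjamini-Hochberg across tested genes, called at 0.05. After a log2 change ± gives the standard error, and after a signal the SD (n = 4). A gene with a group mean under 74.0 has its signals printed and no fold. The scripts were tested on simulated data.

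The members and gene lists were chosen with earlier results of these data known, and lists are described by counts with no test of their own. Genes could be named if they were among the 15 opposite genes per direction with the largest smaller change and no overlap, the 8 largest differences per direction, the opposite list members with both changes of at least 0.5, the 6 largest called differences of a list, the published miR-155 targets or the cell type markers. Which of these the text describes was decided with their values known. LMBR1, CIITA, TRIM22 and BST2 fall outside the rule. Alternatives were log2(signal + 1), log2(signal + 64), no filter on dim genes, a filter at the 75th percentile of mean signal, quantile normalization, centring of arrays, every probe set or the mean of probe sets, a fit of the 16 arrays alone, no trend, and leaving out each array. Leaving out day 4 arrays and fitting the days apart were added after seeing the data. Sequences are from RefSeq (GRCh38.p14). E2F8, MCM4, MCM5, HLA-DRA and OASL had no promoter entry. Python 3.11.15, NumPy 2.4.6, pandas 2.3.3 and Matplotlib 3.10.9 were used for mapping and drawing.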

Additional observations from a re-analysis of the deposited data

Results flagged for a closer look

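Within a group of 4 arrays, some genes and 1 array measure had 1 array standing far from the other 3. Chance gives about 1 such group in 20, and 17 were found among the 292 groups checked, of named genes and of array measures. A high array was found for MKI67 and PIM2 in MY-LA with MRG-106 (2859 and 2822), UNG in untreated MY-LA (3153), MYBL2, TIAM1 and TOX2 in HuT102 with MRG-106 (840.0, 902 and 887) and HLA-DRA in MY-LA with MRG-106 (7.04, a dim signal). A low array was found for USP18 and SCD in HuT102 with MRG-106 (578 and 697), FHL2 and TNFSF13B in MY-LA with MRG-106 (173 and 34.7), TXNIP, TNFSF13B and SREBF1 in untreated HuT102 (798, 2295 and 971) and COX6B1 and SCD in untreated MY-LA (9836 and 3035). The median signal of MY-LA with MRG-106 also had 1 high array, at 67.1.

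The effect of MRG-106 differed between HuT102 and MY-LA for 4506 genes by limma's test of the difference. Of the opposite genes, the difference was larger at day 8 than at day 4 for 526 and smaller for 0, and these genes were chosen on their day 8 values. The transcript that yields miR-155 had a difference of 0.54 (exact permutation p = 0.000408).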

How the results depend on the processing

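Counting every probe set on its own, over more features, gave 3967 higher and 3933 lower in HuT102, 4527 and 3357 in MY-LA, 3424 and 4093 for the difference, 677 and 974 opposite probe sets, 260 and 275 with both changes of at least 0.5, 1490 higher for the day 4 difference, and 7424 and 7095 for the untreated levels. The filter at the 75th percentile, which tests fewer genes, gave 82 opposite genes with HuT102 higher and both changes of at least 0.5, and 2565 higher untreated levels. Opposite genes of oxidative phosphorylation numbered 10 with no filter, 10 with the mean of probe sets and 9 to 19 when 1 array was left out, and those of ribosome biogenesis 5 with centring and 5 with the mean of probe sets. The difference changed sign for DET1 (0.60), ETS1 (-0.49) and KBTBD2 (-0.33) with the mean of probe sets and for RHOA (-0.18) after quantile normalization. Where not stated, the cause was not tested. Of the 1066 opposite genes, 681 (63.9%) were also among the 842 found with the mean of probe sets, 862 (80.9%) among the 962 found with centring, and 85.6% to 98.8% were shared under the other alternatives that test genes. For the difference alone, over all named genes and alternatives, 6264 of 6422 values kept their direction and call, 116 lost the call, 38 gained it and 4 reversed. No paired analysis was possible because the groups compared share no replicate number in the labels, where each array has a running number of its own, and the replicate numbers used here only follow the order of deposit. Signals under the median of all signals limit what can be said of changes between dim groups.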
